A study of Mus musculus with 5 samples.

Results

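The library of induced pluripotent stem cells (iPSC) was compared with that of mouse embryonic fibroblasts (MEF), gene by gene, in a series that profiled 5 kinds of mouse cells by sequencing of polyA RNA, with 1 library each. Of the 34970 genes in the table, 11931 had at least 5 CPM (read counts scaled to a common library size) in iPSC or in MEF, and these are the genes described. A gene was called different where the levels stood at least 4-fold apart, with read counts under 3 set to 3. The other libraries came from blood cells (PB), bone marrow (BM) and a myeloid-like cell complex (MCC), and are used here only to place the levels of the same genes. All 5 are labelled wild type. How the iPSC were made and cultured, and the strain, sex, age, passage and number of embryos behind either library, were not given in the sources used here. With 1 library per group there are no replicates, so no difference could be tested against a spread between cultures. Ratios are printed with an exact 95% Clopper-Pearson interval, conditional on the summed reads, which covers counting error only. Since RNA was taken from whole cultures, fewer cells that express a gene and less RNA per cell cannot be told apart.

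Pluripotent stem cells correspond to the epiblast of the early embryo. A small network of transcription factors around Pou5f1 (OCT4), Sox2 and Nanog holds them in a self-renewing state from which all germ layers can be formed, and they grow as compact epithelial colonies. Embryonic fibroblasts are mesenchymal cells of connective tissue, known for secreting collagen and other matrix proteins, for contractile stress fibres and for growth factor signalling through PDGF and IGF. Reprogramming of fibroblasts to pluripotency is known to include loss of the mesenchymal programme, gain of epithelial junctions and activation of the endogenous pluripotency network.

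The iPSC library held 43800105 counts and the MEF library 46517281, in a range of 30078366 to 47557598 over the 5. Reads were found for 28197 genes in iPSC and 24445 in MEF. A count of 3 reads corresponded to 0.0574 CPM in iPSC and 0.0694 CPM in MEF. The labels were checked against marker genes. All 12 pluripotency markers of a list were above 10 CPM in iPSC, and their summed level was 3244 CPM there against 2.54 CPM in MEF. All 18 fibroblast markers were above 10 CPM in MEF, and their summed level was 29470 CPM there against 510.9 CPM in iPSC. The same list summed to 31210 CPM in MCC, with 16 of the 18 at 5 CPM there. It thus separates MEF from iPSC but not from MCC. Relative to MEF, the fibroblast markers stood in iPSC between 0.0322% for Postn and 37.9% for Fbln1, with a median of 1.65%.

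Of the 11931 genes, 1054 (8.83%) were at least 4-fold higher in iPSC and 760 (6.37%) at least 4-fold lower, which together makes 1814 genes (15.2%). The remaining 10117 (84.8%) stood less than 4-fold apart. The median log2 ratio of iPSC over MEF was -0.11 over all genes, with the quartiles at -0.69 and 0.56. These shares and this median are the background for every gene group below. A member that passed the level filter only through the library where it is high was selected toward a difference. Of the calls, 58.1% were on the iPSC side; among genes at 20 CPM or more in either library the balance turned, with 464 higher and 492 lower (48.5%). Where 2 levels stand in brackets without labels, the first is iPSC and the second MEF, unless the labelled pair before it in the sentence gives MEF first. Scaling by total counts alone gave 1358 higher and 594 lower genes, with 69.6% of calls on the iPSC side and the median shifted to 0.27. The genes called higher were mostly near silent in MEF: 599 of them were under 1 CPM there, 90 had 0 reads, and 179 reached 5 CPM. The genes called lower kept more signal, as 229 of 760 were under 1 CPM in iPSC, 6 had 0 reads and 297 reached 5 CPM. At 64-fold or more there were 383 genes higher and 120 lower. The higher genes took 5.90% of the reads in iPSC and 0.339% in MEF, while the lower genes took 12.95% of the reads in MEF and 1.63% in iPSC. At the edge of the rule, Socs3 (4.0005-fold) and Blm (4.02-fold) lay just inside on the iPSC side and Slc9a3r1 (3.996-fold) and Kat6b (3.993-fold) just outside. On the MEF side Emp2 (4.002-fold) and Pogk (4.007-fold) lay just inside, and Selenom (3.989-fold) and Pak3 (3.982-fold) just outside.

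**Figure D1:**
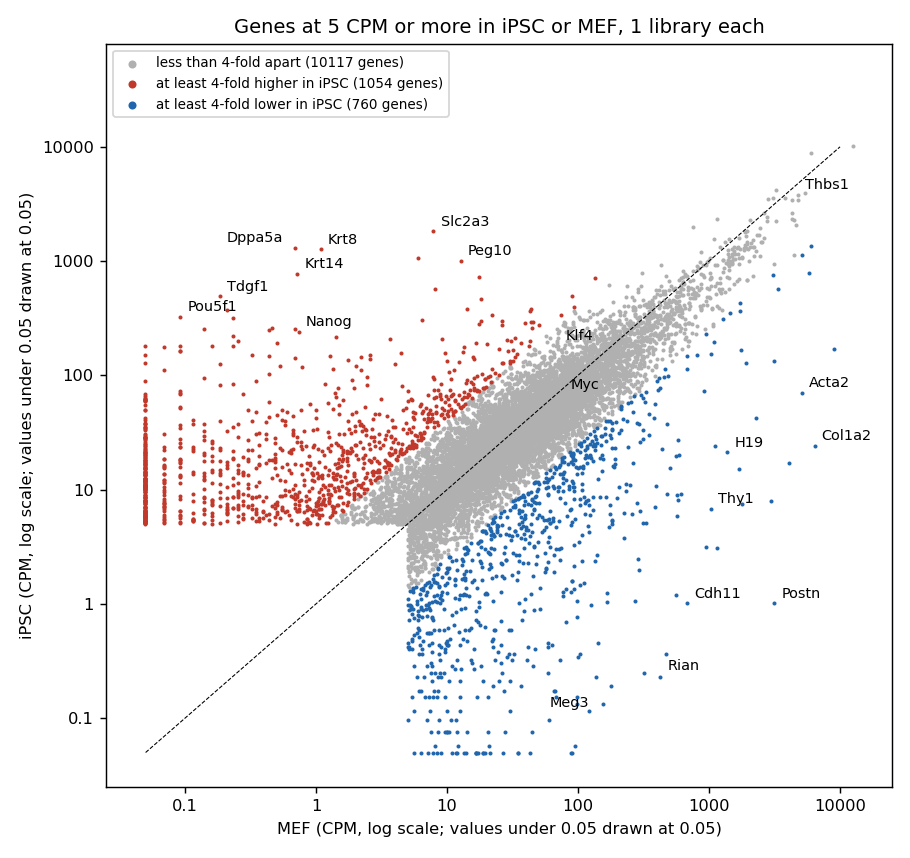
Each point is 1 of the 11931 genes, with its level in MEF on the x axis and in iPSC on the y axis, both in CPM on log scales with values under 0.05 drawn at 0.05. The 1054 genes in red are at least 4-fold higher in iPSC and many lie at the left edge, while most of the 760 genes in blue, at least 4-fold lower, keep a measurable level in iPSC; the dashed line marks equal levels.

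The core pluripotency transcription factors separated the libraries. All 23 genes of this list reached 5 CPM in iPSC and 7 did in MEF. Of the 23, 17 were called higher in iPSC and 0 lower (median log2 ratio 6.80). Most passed the level filter through iPSC alone, so that count follows largely from the filter. A higher level in iPSC than in MEF was found for 22 of the 23. Pou5f1, the POU-domain factor at the centre of the network (chr17:35506018-35510772, plus strand, mm10), had 325 CPM in iPSC, 0.0925 in MEF, 0.347 in MCC and 0 in BM and PB. This was 3512-fold between iPSC and MEF (interval 1371 to 12892), and 14.1% of its annotated exon length overlaps a gene on the opposite strand. Nanog, the homeodomain factor, had 241 CPM in iPSC, 0.740 in MEF, 0.486 in MCC and 0 in BM and PB, a 326-fold difference (231 to 477). Sox2, the HMG-box partner of OCT4, had 148 CPM in iPSC, 0.439 in MEF, 15.1 in MCC and 0 in BM and PB, a 337-fold difference (216 to 560). All 3 were thus high in iPSC alone, except that Sox2 was also measured in MCC. Per kilobase of annotated exon, the iPSC levels were 144 CPM for Pou5f1, 108 for Nanog and 72.0 for Sox2. Because Pou5f1 and Nanog have processed pseudogenes, reads that fit several copies may be lost or split in the authors' counting.

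The partners of these factors followed, down to 0 reads in MEF for a pair of them. Zfp42 (REX1), a zinc finger marker of the ground state, had 34.1 CPM in iPSC and 0 reads in the other 4 libraries, at least 491-fold above the 3-read floor of MEF. Prdm14, a factor of naive pluripotency and germ cell fate, had 10.04 CPM in iPSC and 0 reads in MEF, at least 145-fold. Esrrb, an orphan nuclear receptor, had 180 CPM in iPSC and 2 reads in MEF. The ratio on the reads as counted was 3891, with an interval of 1077 to 32132, and the log2 ratio with the floor was 11.34. Sall4, another zinc finger factor, had 111 CPM against 3 reads in MEF, a ratio of 1604 (549 to 7782). Tfcp2l1, a factor acting downstream of LIF, had 221 CPM against 0.231 in MEF.

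The 6 list members that were not called include the other classic reprogramming factors. Klf4, a Krüppel-like factor, had 183 CPM in iPSC and 70.9 in MEF, a 2.57-fold difference (2.47 to 2.68), beside 125 in MCC, 50.8 in BM and 79.6 in PB. Myc had 67.9 CPM in iPSC and 77.1 in MEF, and 214 in MCC. Klf2 (57.6 CPM in iPSC, 33.3 in MEF), Tbx3 (52.7 and 24.0), Mycl (19.9 and 10.2) and Zfp281 (72.6 and 29.9) also stayed inside 4-fold. Mycn, by contrast, had 50.1 CPM in iPSC and 0.301 in MEF. Of the genes of the Yamanaka set, Pou5f1 and Sox2 passed the rule and Klf4 and Myc did not.

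Promoter sequence is shown for members of the 2 programmes with opposite calls, since each holds a motif of a factor known for that programme. The windows lie within the 250 bases before the RefSeq start (GRCm38.p6), stop at the first base of an annotated exon of the gene, and run 5′ to 3′ on the gene's strand with the motif in capitals. Nanog had 2 RefSeq starts, and the first by coordinate was used. For Nanog (chr6:122707239-122707488, plus strand) the capitals mark the OCT-SOX composite motif, read on the minus strand, at -72 to -62 from that start. For Zfp42 (chr8:43307010-43307259, minus strand) they mark the octamer ATGCAAAT on the strand opposite to the gene, at -186 to -179.

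Nanog: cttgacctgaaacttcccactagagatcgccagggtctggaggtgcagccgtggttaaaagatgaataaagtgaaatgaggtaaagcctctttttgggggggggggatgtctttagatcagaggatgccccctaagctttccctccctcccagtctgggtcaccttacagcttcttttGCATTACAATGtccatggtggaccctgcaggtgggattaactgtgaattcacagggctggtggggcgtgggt

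Zfp42: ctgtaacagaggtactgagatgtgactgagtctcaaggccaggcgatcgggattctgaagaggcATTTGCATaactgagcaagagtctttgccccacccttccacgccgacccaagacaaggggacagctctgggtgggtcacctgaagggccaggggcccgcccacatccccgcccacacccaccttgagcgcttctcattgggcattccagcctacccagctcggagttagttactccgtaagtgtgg

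Both strands of the 250-base windows of 27025 genes were searched. The composite was found in 0.0629% of them and the octamer in 1.81%, where the composite's ATGC can overlap an octamer. Such a match is a description of the letters and not a measured binding site. Only 72.7% of the genes called higher and 69.6% of those called lower had a promoter in this table, so a count of motifs over the called genes is void and not given.

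Secreted, RNA-binding and other genes associated with pluripotency were higher as a group. Of 30 genes, 29 reached 5 CPM in iPSC and 5 did in MEF. Of the 29, 26 were called higher and 0 lower (median log2 ratio 8.77). Most passed the level filter through iPSC alone, so that count follows largely from the filter. Dppa5a, an RNA-binding protein of pluripotent cells with near-identical copies in the genome, had 1310 CPM in iPSC and 0.694 in MEF, a 1889-fold difference (1323 to 2800), and 0 reads in MCC, BM and PB. Tdgf1 (Cripto), the co-receptor of Nodal, had 494 CPM against 0.185, a 2672-fold difference (1356 to 6190). Utf1, a chromatin-associated factor, had 129 CPM in iPSC and 1 read in MEF. Tdh, threonine dehydrogenase, on which mouse pluripotent cells are known to depend, had 181 CPM against 0.0925. Fgf4, the growth factor that primes pluripotent cells for differentiation, had 61.9 CPM in iPSC and 0 reads in the other 4 libraries, at least 892-fold above the MEF floor. Lin28a, which blocks maturation of let-7 miRNAs, had 165 CPM in iPSC and 0.0925 in MEF but also 67.7 in BM. Spp1 (osteopontin), which is on the list as an OCT4 target but is made by fibroblasts as well, went the other way, with 680 CPM in iPSC and 1956 in MEF, short of the 4-fold rule. Slc7a3 (27.8 and 23.4 CPM) and Jam2 (22.1 and 6.54) also stayed inside it.

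Genes that mark the naive and the formative state were both present. Of the 19 naive genes at 5 CPM, 13 were called higher and 0 lower (median log2 ratio 7.18), and 10 of these 19 were under 5 CPM in MEF. Of the 15 formative and primed genes at 5 CPM, 10 were called higher and 0 lower, with a median of 5.74, and 11 of the 15 were under 5 CPM in MEF. Among the latter, Otx2 had 7.71 CPM in iPSC, Pou3f1 22.04 and Grhl2 21.6, against 0.0231, 0.185 and 0.0231 in MEF, while Fgf5 (0.918 CPM in iPSC, 2.06 in MEF) and Sox3 (0.784 and 0) did not reach 5 CPM. None of the 21 genes of the 2-cell-like state that are in the table reached 5 CPM; the levels in iPSC were at most 0.325 CPM (Pramef25). The Zscan4 and Usp17l genes of that list are near-identical copies, so their single levels are uncertain.

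Germ cell genes were found at low but measurable levels in iPSC. Of 41 genes in the table, 22 reached 5 CPM, all of them in iPSC and 1 in MEF, and all 22 were called higher (median log2 ratio 6.99). Since 21 passed the level filter through iPSC alone, that count follows largely from the filter. All 41 had a higher level in iPSC than in MEF. Rnf17, a Tudor-domain protein of germ granules, had 48.2 CPM in iPSC and 0.347 in MEF. Tdrd12, a helicase of the piRNA pathway, had 20.2 CPM and 1 read in MEF, and Ddx4 (VASA) 18.6 CPM and 3 reads. Ddx4 was also measured in MCC, at 9.21 CPM. The X-linked homeobox genes Rhox5 (64.8 and 1.41 CPM), Rhox6 (27.8 and 0.0462) and Rhox9 (16.03 and 0) belong to a cluster of close copies. Dazl (4.04 CPM in iPSC) and Sycp3 (1.63) remained under 5 CPM.

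Genes known from the trophoblast also stood high in iPSC. Of 17 genes, 13 reached 5 CPM in iPSC and 2 in MEF. Of the 13, 12 were called higher and 0 lower (median log2 ratio 6.97). Most of them passed the level filter through iPSC alone, so that count follows largely from the filter. Of all 17, 16 had a higher level in iPSC than in MEF. The list shares Krt8, Krt18 and Krt7 with simple epithelia. Cdx2, the homeobox factor of trophectoderm, had 35.2 CPM in iPSC and 0 reads in the other 4 libraries, at least 508-fold above the MEF floor. Tfap2c had 53.3 CPM against 0.0925, Hand1 26.8 against 0.162, Esx1 28.9 against 1 read and Ascl2 8.69 against 1 read. Elf5 (0.421 CPM), Gcm1 (1.38) and Plac1 (3.69) did not reach 5 CPM in iPSC, and Psg23 had 0 reads. Tfap2a (5.40 and 1.66 CPM) was not called, and 14.6% of its exon length overlaps another gene.

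Regulators of the germ layers were few at 5 CPM. Of 9 mesoderm genes at 5 CPM, 5 were called higher and 3 lower; of 8 neuroectoderm genes 4 were higher and 0 lower; and of 6 endoderm genes 1 was higher and 1 lower. Without the level filter the counts were 11 higher and 4 lower of 19 mesoderm genes, 7 and 2 of 18 neuroectoderm genes, and 9 and 1 of 21 endoderm genes. T (Brachyury), the factor of the primitive streak, had 24.9 CPM in iPSC and 2 reads in MEF, and Wnt3, which induces the streak, 23.4 CPM and 3 reads. Olig2, a neural progenitor factor, had 11.001 CPM in iPSC and 1 read in MEF. Gata4, an endoderm factor, had 6.24 CPM and 1 read. Pax6 (0.268 CPM in iPSC), Sox1 (0.861), Sox17 (0.995), Foxa2 (0.804) and Afp (0.134) of neuroectoderm and endoderm were under 1 CPM in iPSC. On the MEF side were Pdgfra (107 CPM in MEF, 2.37 in iPSC), Snai1 (70.6 and 9.68) and Isl1 (5.04 and 0.421); Isl1 lay at the level filter and was no longer counted with DESeq2 size factors.

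Epithelial junction and keratin genes were mostly near silent in MEF and measured in iPSC. Of 40 genes in the table, 37 reached 5 CPM in iPSC and 7 in MEF. Of the 37, 34 were called higher and 0 lower (median log2 ratio 7.94). Since most passed the level filter through iPSC alone, that count follows largely from the filter. Of all 40, 39 had a higher level in iPSC than in MEF. Cdh1 (E-cadherin), the cell adhesion protein of epithelia, had 372 CPM in iPSC and 0.208 in MEF, a 1786-fold difference (940 to 3905), beside 0.162 in MCC, 13.5 in BM and 4.79 in PB. Epcam had 180 CPM against 0.231. The tight junction proteins Cldn4 (315 CPM) and Cldn7 (68.3) had under 0.3 CPM in MEF, and Cldn6 (151 CPM), a claudin known from pluripotent and early epithelial cells, had 1 read there and 0 reads in MCC, BM and PB. Dsp, the desmosomal plaque protein, had 261 CPM against 0.462. The splicing regulator Esrp1, which drives epithelial exon choice, had 41.1 CPM and 0 reads in MEF, at least 592-fold. Jup (227 and 90.1 CPM) and Pkp2 (67.1 and 31.9) were within 4-fold, and P-cadherin, Cdh3, had more reads in MEF (19.99 CPM in iPSC, 70.8 in MEF).

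Keratins of simple epithelia and some of stratified epithelia were both high in iPSC. Krt8 had 1266 CPM in iPSC and 1.09 in MEF, a 1165-fold difference (876 to 1586), and its partner Krt18 had 1065 CPM against 5.97. Krt14, the basal keratin of stratified epithelia, had 773 CPM in iPSC, 0.717 in MEF, 0.393 in MCC, 0 in BM and 0.0335 in PB, a 1079-fold difference (760 to 1588). Krt6a had 253 CPM against 0.139, and Krt16 50.2 CPM against 0 reads. Krt5, the usual partner of Krt14, had 0.153 CPM in iPSC and 0.162 in MEF, and Trp63, the master factor of basal keratinocytes, had 0.363 CPM in iPSC. Of 12 keratinocyte markers 5 reached 5 CPM, all called higher (Krt14, Krt17, Perp, Sfn and Lgals7), and their list summed to 1451 CPM in iPSC and 21.7 CPM in MEF, while Krt5, Krt15, Krt1, Trp63, Ivl and Dsg3 were under 1 CPM in iPSC. The part of other cell types in these levels was not tested. Krt14, Krt16 and Krt17 are close in sequence, as are Krt6a and Krt6b, and 24.8% of the exon length of Krt6a overlaps another gene, so single keratin levels are uncertain.

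**Figure D2:**
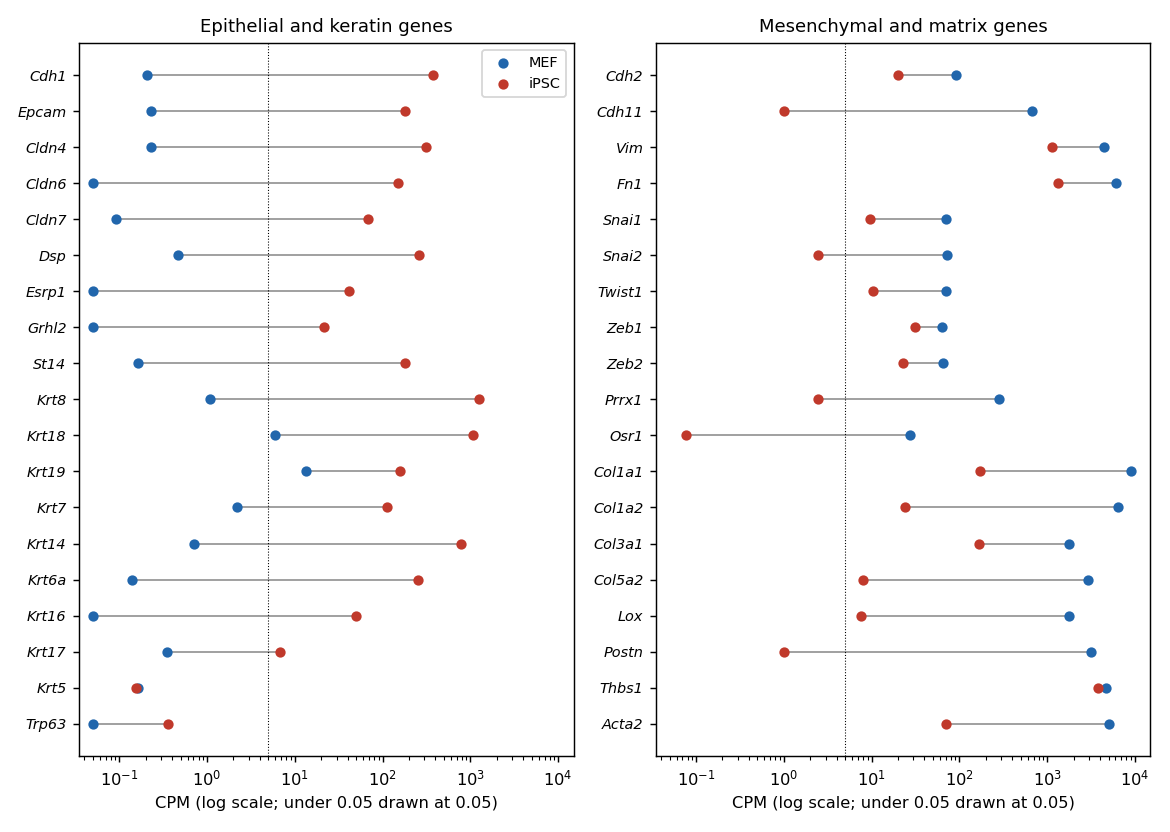
Levels in CPM on a log scale in MEF (blue) and iPSC (red), 1 library each, for epithelial and keratin genes on the left and mesenchymal and matrix genes on the right; values under 0.05 are drawn at 0.05 and the dotted line marks 5 CPM. On the left Cdh1 to Krt17 lie to the right in iPSC while Krt5 and Trp63 stay under 1 CPM; on the right MEF lies higher throughout, with Thbs1 almost equal and reversed to a log2 ratio of 0.05 with total counts.

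Mesenchymal transcription factors and adhesion genes showed the opposite pattern. Of 39 genes at 5 CPM, 36 reached that level in MEF and 23 in iPSC; 23 were called lower in iPSC and 2 higher (median log2 ratio -2.61). Prrx1, a homeobox factor of limb and connective tissue mesenchyme, had 285 CPM in MEF and 2.45 in iPSC, a 116-fold difference (97.8 to 140), and 190 CPM in MCC. Osr1 had 27.7 CPM in MEF against 0.0765 in iPSC. Cdh11, the cadherin of mesenchymal cells, had 677 CPM in MEF and 1.01 in iPSC, a 668-fold difference (510 to 892). Of the factors known to repress Cdh1, Snai1 (7.29-fold), Snai2 (29.97-fold), Twist1 (6.67-fold) and Twist2 (11.8-fold) were called lower, while Zeb1 (30.8 CPM in iPSC, 64.1 in MEF) and Zeb2 (22.9 and 65.3) were not. N-cadherin, Cdh2, was 4.52-fold lower, at 20.1 CPM in iPSC. Vimentin, Vim, the intermediate filament protein of mesenchyme, kept 1126 CPM in iPSC against 4416 in MEF, just short of 4-fold. Msx2 (22.9 and 2.57 CPM) and Foxd1 (5.70 and 0.532) were the 2 members called higher.

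Fibrillar collagens and the enzymes that process them lay on the MEF side. All 31 genes at 5 CPM reached that level in MEF and 26 did in iPSC; 24 were called lower in iPSC and 0 higher (median log2 ratio -3.75). The chains of collagen I, Col1a1 and Col1a2, differed in extent. Col1a1 had 8923 CPM in MEF and 6563 in MCC, against 170 in iPSC, 39.4 in BM and 1.74 in PB, a 52.5-fold difference between MEF and iPSC (51.4 to 53.7). Col1a2 had 6384 CPM in MEF and 5548 in MCC, against 24.3 in iPSC, 47.0 in BM and 1.77 in PB, a 263-fold difference (249 to 278). Col5a2 was 369-fold lower in iPSC (335 to 407) and Lox, the enzyme that cross-links collagen, 235-fold (213 to 260), with 7.54 CPM left. Adamts2, which trims procollagen, was 128-fold lower. The prolyl and lysyl hydroxylases stood apart from the chains: P4ha1 (71.7 CPM in iPSC, 224 in MEF), P4ha2 (36.8 and 141), Plod1 (63.8 and 128), Plod2 (80.7 and 60.3) and Plod3 (58.9 and 216) were not called.

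Matricellular proteins and proteoglycans held Postn, the gene with the highest counting bound among those lower in iPSC. Of 37 genes, all reached 5 CPM in MEF and 23 in iPSC; 26 were called lower and 2 higher (median log2 ratio -4.28). Postn (periostin), a matrix protein of fibroblasts (chr3:54361109-54391037, plus strand), had 3152 CPM in MEF and 1599 in MCC, against 1.01 in iPSC, 0.417 in BM and 0.134 in PB, a 3109-fold difference (2377 to 4150). The proteoglycan genes Bgn (4068 CPM in MEF and 17.0 in iPSC), Dcn (141 and 0.459), Aspn (121 and 0.115) and Ogn (30.04 and 0.115) were all called lower. Thbs2 was 377-fold lower (323 to 442), with 1160 CPM in MEF and 3.08 in iPSC, but its paralog Thbs1 had 3820 CPM in iPSC and 4741 in MEF. Fn1 (fibronectin), at 1345 CPM in iPSC and 6019 in MEF, was 4.48-fold lower. The 2 members called higher were Prelp, a proteoglycan of basement membrane anchorage, with 463 CPM against 18.0 (25.6-fold, 23.9 to 27.6), and Tgfbi, with 153 CPM against 34.2. Prelp was also at 207 CPM in MCC.

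Basement membrane genes were mixed, with the laminin chains on both sides. Of 19 genes at 5 CPM, 5 were called higher and 3 lower (median log2 ratio 0.84). Lama5, the alpha chain of laminins that support pluripotent cells, had 573 CPM in iPSC and 8.12 in MEF, a 70.6-fold difference (63.5 to 78.6), and at most 3.29 CPM in MCC, BM and PB. Lama3 and Lamb3, chains of the laminin of epithelial hemidesmosomes, had 22.2 and 22.1 CPM in iPSC against 0.324 and 0.555 in MEF. Lama2, the chain of muscle and mesenchyme, had 0.325 CPM against 31.6, and Lama4 7.29 against 122. Hspg2 (perlecan) did not differ by the rule, at 983 and 967 CPM.

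In a separate list of integrins with various ligands, 4 of 16 genes at 5 CPM were called higher and 4 lower. Itgb4, which pairs with Itga6 in hemidesmosomes, had 218 CPM in iPSC and 1.41 in MEF, a 154-fold difference (120 to 202). Itga6 had 281 CPM against 17.5 and Itga3 207 against 9.23, both subunits of laminin receptors. Itga11, a collagen receptor subunit, had 3.98 CPM against 107. Itga5 of the fibronectin receptor was 4.06-fold lower and no longer called under total counts or with DESeq2 size factors. Itgb1, the shared beta chain, had 691 CPM in iPSC and 1701 in MEF.

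Of 28 matrix proteases and inhibitors, 14 were called lower and 1 higher (median log2 ratio -2.46). Ctsk, a collagen-degrading cathepsin, had 136 CPM in MEF and 0.230 in iPSC (594-fold, 340 to 1151). Serpinf1 had 945 CPM in MEF and 3.16 in iPSC, and Fap, a protease of activated fibroblasts, 14.1 and 0.0765. Mmp9, a gelatinase, was the member called higher, with 45.7 CPM against 9.11. The inhibitor genes Timp1 (262 CPM in iPSC and 610 in MEF), Timp2 (448 and 548) and Timp3 (307 and 176) were within 4-fold.

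Of 38 contractile and cytoskeletal genes, all at 5 CPM in MEF and 32 in iPSC, 17 were called lower and 0 higher (median log2 ratio -1.62). Actg2, Acta2, Myl9 and Mylk had the largest counting bounds. Acta2, smooth muscle actin, had 5086 CPM in MEF and 162 in MCC, against 70.6 in iPSC, 7.07 in BM and 8.57 in PB, a 72.0-fold difference (69.7 to 74.4). Actg2 had 271 CPM in MEF and 1.05 in iPSC. Myl9, a myosin light chain, had 612 CPM and 9.11 (67.2-fold, 61.4 to 73.7), and Mylk 22.4 CPM and 0.497 (45.0-fold, 30.5 to 69.2). Cnn2, a calponin, was called lower by a smaller ratio, with 1036 CPM in MEF and 152 in iPSC. Genes of the cytoskeleton that all cells use stayed closer: Myh9 had 1233 CPM in iPSC and 2288 in MEF, and Flna, a crosslinker of actin, 944 and 3127. The transcription factor genes Srf (50.01 and 89.9 CPM) and Mrtfa (39.4 and 62.8) were not called.

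The windows before the starts of Myl9 (chr2:156775214-156775419, plus strand) and Cnn2 (chr10:79988350-79988583, plus strand) each hold a CArG box, the motif bound by SRF, at -161 to -152 and at -56 to -47 from the RefSeq start. The capitals mark it. It reads on both strands, overlaps no other motif searched in these windows, and was found in 1.62% of the promoters of 27025 genes.

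Myl9: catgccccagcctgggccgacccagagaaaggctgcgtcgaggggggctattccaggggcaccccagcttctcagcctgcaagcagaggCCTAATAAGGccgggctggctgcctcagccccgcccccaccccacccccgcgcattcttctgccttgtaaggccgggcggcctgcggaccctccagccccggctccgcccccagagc

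Cnn2: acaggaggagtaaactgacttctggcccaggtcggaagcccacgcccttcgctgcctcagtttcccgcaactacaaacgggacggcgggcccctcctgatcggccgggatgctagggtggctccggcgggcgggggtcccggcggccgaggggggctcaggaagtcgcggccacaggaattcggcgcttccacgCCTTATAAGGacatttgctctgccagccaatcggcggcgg

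In the YAP and AP-1 list of 24 genes, all at 5 CPM in MEF, 1 was called higher (4.17%) and 3 lower (12.5%), and the median log2 ratio of -0.68 lay near the lower quartile of all genes. Of the 24, 4 had a higher level in iPSC than in MEF. Ankrd1, a YAP target, had 35.3 CPM in MEF and 2.70 in iPSC, and Ccn2, another target, 486 and 99.0 (4.91-fold), with 23.2% of its exon length antisense to another gene. Tead4, a partner of YAP, had 27.1 CPM in iPSC and 6.29 in MEF. Yap1 itself had 127 CPM in iPSC and 183 in MEF. With total counts, 1 member was lower in place of 3, and Ccn2 was among those lost.

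Growth factor genes of mesenchyme lay mostly on the MEF side: of 29 at 5 CPM, 16 were called lower and 3 higher (median log2 ratio -2.14). The PDGF receptors Pdgfra (107 CPM in MEF, 2.37 in iPSC) and Pdgfrb (479 and 9.11) were 45.3-fold and 52.6-fold lower. The ligand Pdgfb went the other way, with 42.0 CPM in iPSC and 0.994 in MEF. Hgf had 16.7 CPM in MEF and 2 reads in iPSC, and Igf1 12.5 CPM and 0.115. The IGF-binding proteins took both directions. Igfbp2 had 727 CPM in iPSC and 17.5 in MEF, whereas Igfbp5 (5.93 and 568) and Igfbp7 (8.07 and 582) were called lower, and Igfbp4 (151 and 231) was not called. Igf2, with 63.6 CPM in iPSC and 7.93 in MEF, shares 64.5% of its exon length with another gene.

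Of the pathways that steer pluripotency, Nodal signalling differed by component. Its ligand Nodal had 38.3 CPM in iPSC and 1 read in MEF, its co-receptor Tdgf1 and its feedback inhibitors Lefty1 (32.4 and 3.56 CPM) and Lefty2 (61.6 CPM and 1 read) were higher too, and the ligand Gdf3 had 18.3 CPM and 0 reads. The receptor Acvr1b (39.4 and 13.0 CPM) was within 4-fold. On the MEF side were the BMP antagonist Grem1 (291 CPM in MEF, 1.99 in iPSC), Tgfb3 (182 and 5.36) and Ltbp2 (225 and 3.79). In all, 8 of the 36 Nodal, BMP and TGF-beta genes at 5 CPM were higher and 8 lower, and their median of -0.24 had the opposite sign, 0.12, under total counts.

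In FGF and ERK signalling, 3 of 19 genes were higher and 5 lower, with total counts 5 and 3. The ligands were split: Fgf4, Fgf8 (5.84 CPM) and Fgf17 (6.45 CPM) had 0, 0 and 1 read in MEF, while Fgf7 (65.2 CPM in MEF, 0.172 in iPSC), Fgf10 (11.7 and 0.842) and Fgf2 (31.0 and 3.60) were lower. The receptor Fgfr1 (112 and 366 CPM), the feedback genes Spry2, Spry4 and Dusp6, and the transcription factor Etv4 were not called. In the LIF and STAT3 list, 1 of 12 was higher and 1 lower. Socs3, the feedback inhibitor, had 100 CPM in iPSC and 25.1 in MEF, at the edge of the rule, and Osmr, the oncostatin M receptor, 5.99 and 123. Lifr (20.8 and 14.7 CPM), Il6st (83.5 and 271) and Stat3 (111 and 229) were not called. The count of higher members of this list was 3 with DESeq2 size factors, 4 with total counts and 0 with TMM over both libraries alone, where Socs3 fell to a log2 ratio of 1.9931.

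Among regulators of DNA methylation, 5 of 20 were higher and 0 lower (median log2 ratio 0.93). The de novo methyltransferase Dnmt3b had 139 CPM in iPSC and 2.59 in MEF (53.6-fold, 44.5 to 65.2), its cofactor Dnmt3l 206 and 3.68, and the hydroxylase Tet1 82.7 and 2.47. Zfp57, which protects methylated imprints, had 171 and 24.9 CPM. The maintenance enzyme Dnmt1 (250 and 135) and its partner Uhrf1 (284 and 91.6) were within 4-fold. Of 41 Polycomb and remodelling genes, 6 were higher and 0 lower. The cofactors of Polycomb repressive complex 2, Jarid2 (177 and 13.6 CPM), Epop (135 and 9.94) and Mtf2 (94.0 and 16.1), passed the rule while its core subunits Ezh2 (94.4 and 36.4), Eed (99.2 and 33.6) and Suz12 (140 and 54.7) did not. Among the chromobox genes Cbx7 had 135 CPM in iPSC and 1.76 in MEF, a 77.0-fold difference (61.5 to 97.9), and Cbx2, Cbx6 and Cbx8 were not called. Morc1, a germ cell silencer of transposons, had 25.9 CPM against 0.717. Of 19 genes that silence retroelements, 3 were higher and 0 lower. Of 20 lamina and lysosome genes 2 were higher and 0 lower (4 higher with total counts), with a median log2 ratio below that of all genes, at -1.09; Lamp1, a lysosomal membrane protein, had 389 CPM in iPSC and 1060.2 in MEF without a call. Nup210, a nuclear pore protein, had 39.7 CPM in iPSC and 0.185 in MEF, but 547 in BM and 363 in PB.

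Cell cycle genes were called higher at about the share of all genes, while most had a higher level in iPSC. Of 42 cell cycle and replication genes, 4 were higher (9.52%, beside 8.83% of all genes) and 1 lower, their median log2 ratio was 1.13, and 40 of the 43 in the table had a higher level in iPSC. Mcm10 (98.1 and 17.0 CPM), Cdc6 (72.0 and 13.5), Mcm3 (393 and 92.7) and E2f2 (7.82 and 1.76) passed the rule. Ccnd2 (cyclin D2) was 21.3-fold lower in iPSC, with 27.2 CPM against 578, while Ccnd1 (294 and 91.4) and Ccnd3 (177 and 114) were not called. Of 31 DNA repair and telomere genes, 10 were higher and 0 lower, with a median of 1.65; the mismatch repair gene Msh6 (290 and 45.6 CPM) and the poly(ADP-ribose) polymerase Parp1 (495 and 90.7) were among them. Under total counts, 8 cell cycle and 16 repair genes were higher. Of 27 inhibitors of the cell cycle and p53 targets, 1 was higher and 1 lower, with a median of 0.01: Perp, which is also a desmosomal protein, had 193 CPM in iPSC and 0.509 in MEF, and Bbc3 (PUMA) had 1.68 and 27.1. Cdkn2a (73.4 and 84.4 CPM) and Cdkn1a (200 and 279) were not called.

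Genes of glucose metabolism were called at about the share of all genes, and the 2 called higher were transporters. Slc2a3, a high-affinity glucose transporter, had 1837 CPM in iPSC, 7.88 in MEF, 1.18 in MCC, 383 in BM and 219 in PB, a 233-fold difference from MEF (209 to 260). Slc2a1 had 718 CPM in iPSC and 135 in MEF. Of 23 genes of the list, these 2 were higher (8.7%) and Eno2 (4.96 and 20.7 CPM) was lower (4.35%), beside 8.83% and 6.37% of all genes. The median log2 ratio of the list was 0.17. Gapdh had 3549 and 3804 CPM and Ldha 1811 and 1872. Total counts gave 4 higher members. In one-carbon and amino acid metabolism, 5 of 23 genes were higher and 1 lower. Beside Tdh, the genes of the glycine cleavage system Gldc (102 CPM in iPSC, 0.439 in MEF) and Amt (56.9 and 1.23) were higher, and Mthfd2 (52.6 and 213), at 4.04-fold lower, lost its call with DESeq2 size factors. Of 16 mitochondrial genes at 5 CPM 4 were higher, among them Ucp2 (49.95 and 9.50 CPM) and Cox6b2 (25.4 and 1.43).

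Imprinted genes, expressed from only one parental copy, were called in both directions: 8 of 26 higher and 5 lower. The maternally expressed noncoding RNAs of the Dlk1-Dio3 domain on chromosome 12 were close to absent in iPSC. Rian (chr12:109603940-109661716, plus strand) had 426 CPM in MEF and 431 in MCC, against 0.230 in iPSC, 0.0736 in BM and 0.134 in PB, a 1857-fold difference (1063 to 3594). Meg3 (chr12:109541001-109571726, plus strand) had 156 CPM in MEF, 307 in MCC but 0.134 in iPSC, a 1167-fold difference (566 to 2904). Mirg had 13.4 CPM in MEF and 0 reads in iPSC, at least 233-fold lower. Dlk1, the paternally expressed protein-coding gene of the same domain, had 27.0 CPM in iPSC and 33.3 in MEF, so the members of the domain did not share a pattern.

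Elsewhere, H19 had 1374 CPM in MEF, 4317 in MCC and 21.2 in iPSC, a 64.7-fold difference (61.0 to 68.7). Peg10, a retrotransposon-derived gene needed in the placenta, had 1006 CPM in iPSC and 12.7 in MEF, a 79.2-fold difference (72.8 to 86.3). Phlda2 (27.2 and 0.139 CPM), Nnat (126 and 4.05) and Zdbf2 (62.0 and 5.30) were higher too, and Igf2r (94.6 and 417) was lower. Peg3 (109 and 110 CPM), Cdkn1c (29.7 and 30.2) and Grb10 (135 and 518) were not called.

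All 4 Y-linked genes of the table's sex-linked list were at trace level in iPSC. Ddx3y had 44.3 CPM in MEF and 4 reads in iPSC, and Eif2s3y (26.6 CPM), Kdm5d (16.8) and Uty (13.9) had 1 read each in iPSC; in MCC, BM and PB the 4 genes lay between 14.7 and 124 CPM. Xist, the RNA that silences an X chromosome, had 35.3 CPM in iPSC and 57.7 in MEF, so the MEF library held both Xist and Y-linked RNA. Sex chromosome content and cell type cannot be told apart in this comparison. Of the members on the X chromosome 12.8% were called higher, beside 12.5% on chromosome 1 and 5.75% on chromosome 19; 4 of 5 on the Y were lower.

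**Figure D3:**
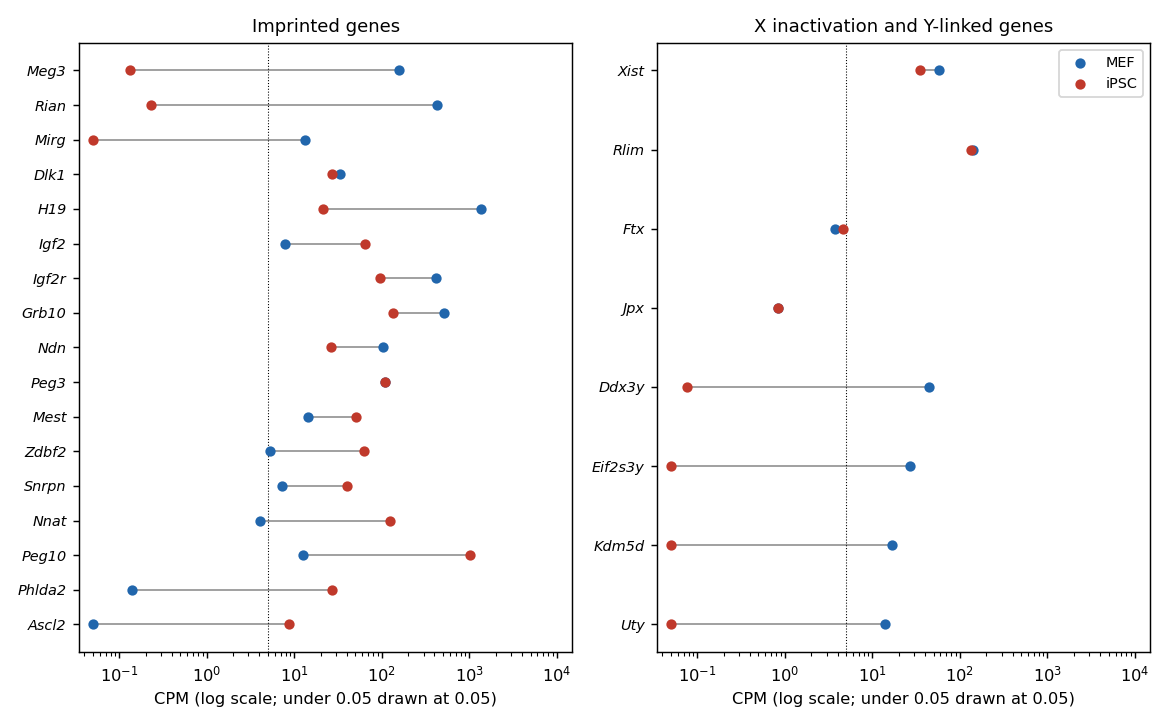
Levels in CPM on a log scale in MEF (blue) and iPSC (red), 1 library each, of imprinted genes on the left and of X inactivation and Y-linked genes on the right; values under 0.05 are drawn at 0.05 and the dotted line marks 5 CPM. Meg3, Rian and Mirg fall under 0.3 CPM in iPSC while Dlk1 stays near its MEF level, and the 4 Y-linked genes lie under 0.1 CPM in iPSC.

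Inflammatory genes were lower in iPSC in 10 of 20 cases and higher in 2. Il1rl1, the IL-33 receptor, had 320 CPM in MEF and 0.249 in iPSC (1287-fold, 753 to 2418), and Cxcl12, a chemokine of stroma, 171 and 4.74. The NF-kB inhibitor genes Nfkbia (60.0 and 11.4 CPM) and Tnfaip3 (20.2 and 2.01) were the 2 called higher, and Ptgs2 (163 and 171) was not called. Of 29 antigen presentation and interferon genes 3 were higher and 2 lower. B2m, the light chain of MHC class I, had 75.2 CPM in iPSC and 408 in MEF, while the heavy chain gene H2-D1 had 88.4 and 109. Ifitm1, known from early embryonic cells, had 77.9 CPM against 1.94. Surface proteins used to sort these cells were divided as well. Thy1 had 1030 CPM in MEF and 6.81 in iPSC (151-fold, 136 to 168) and Vcam1 80.7 and 0.689, whereas Alpl, alkaline phosphatase, had 83.3 CPM in iPSC and 0.231 in MEF, Kit 32.5 and 0.139, and Podxl 255 and 0.694. Of the 19 surface genes at 5 CPM, 9 were higher and 2 lower. Cd44 (176 and 348 CPM) and Ly6a (610 and 238), which has close copies, were not called. Of 39 Hox genes, 20 reached 5 CPM, with 1 higher (5.0%) and 3 lower (15.0%) and a median log2 ratio of -0.93. Hoxc12 had 13.0 CPM in iPSC and 2.43 in MEF (5.37-fold). On the MEF side were Hoxb8 (7.49 CPM in MEF, 1.45 in iPSC), Hoxc8 (10.01 and 2.07) and Hoxc6 (13.99 and 3.18), of which Hoxc8 and Hoxc6 lost their call with total counts. Hoxb9 (17.2 CPM in iPSC, 54.8 in MEF), Hoxa10 (11.7 and 35.5) and Hoxd13 (12.2 CPM in iPSC, 15.1 in MEF) were not called.

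**Figure D4:**
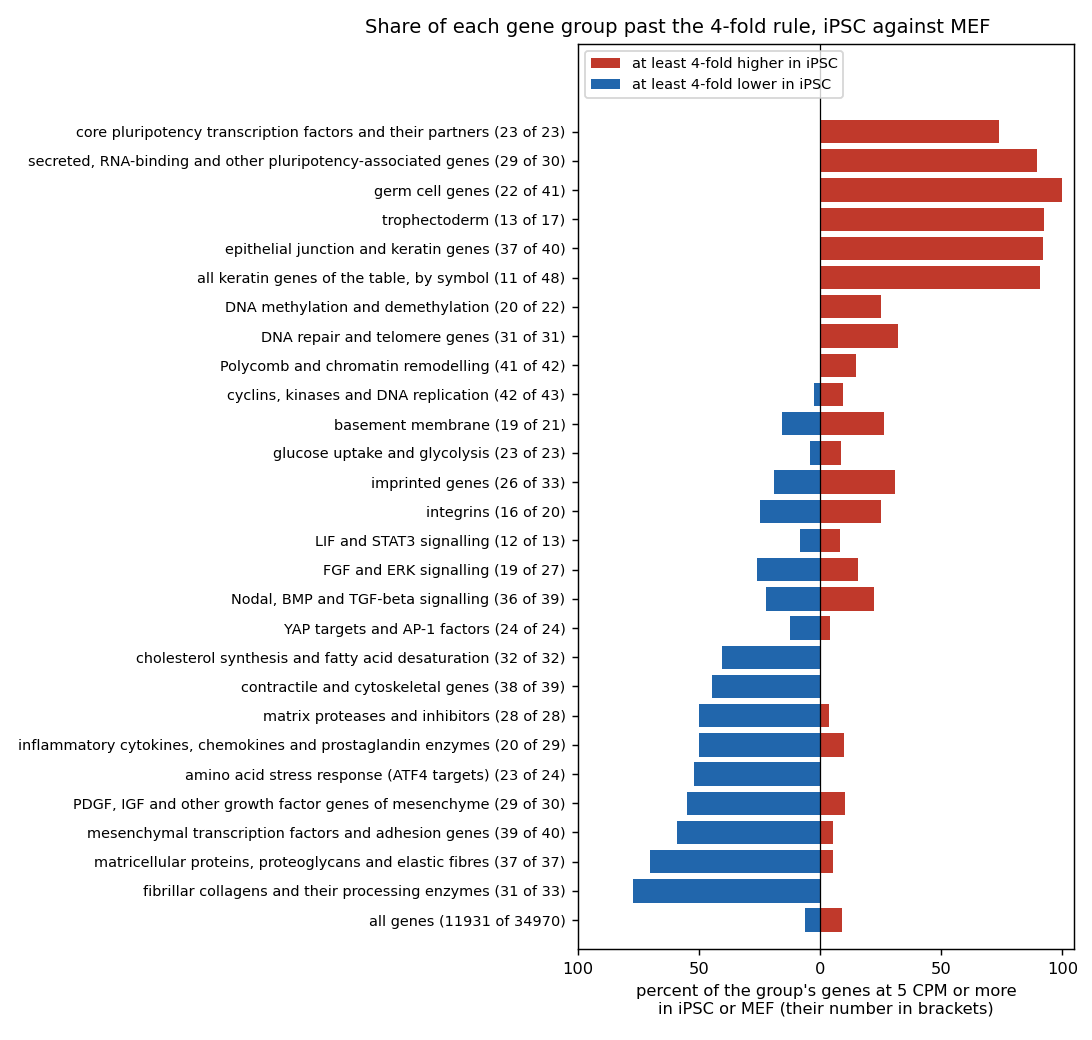
Bars give the percent of each gene group at least 4-fold higher (red, to the right) or lower (blue, to the left) in iPSC than in MEF, among its genes at 5 CPM or more in either library; brackets give that number and the number in the table, and the last bar is the background of 8.83% and 6.37%. Pluripotency, germ cell, trophoblast and epithelial groups point right and matrix, mesenchymal and growth factor groups left; members that passed the filter only through the library where they are high were selected toward a difference, and the keratin, cholesterol and ATF4 groups were chosen after their values were seen.

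The libraries the rule did not use give levels for the same genes. Of the 1054 genes higher in iPSC, 30.4% reached 5 CPM in PB, 33.8% in BM and 26.4% in MCC. Of the 760 genes lower in iPSC, 32.9% did so in PB, 37.2% in BM and 82.4% in MCC. The shares for all 11931 genes were 73.7%, 78.0% and 87.5%. The share of MEF-side genes at 5 CPM in MCC was thus below that of all genes. Under 1 CPM in all of PB, BM and MCC were 374 of the genes higher in iPSC, 37 of those lower and 454 of all 11931. With MEF added, which the rule selected to be lower, 335 genes (31.8% of those higher in iPSC) were under 1 CPM in the other 4 libraries. Of the genes higher in MEF, 24 (3.16%) were under 1 CPM in the other 4 libraries, where iPSC was selected to be lower. Among the 12 leading genes on the iPSC side, Mal, a membrane raft protein, had 176 CPM in iPSC and at most 0.301 in MCC, BM and PB. Of the 12 on the MEF side, Fibin had 90.2 CPM in MEF, 32.8 in MCC and 0 reads in iPSC, at least 1572-fold lower, and Ptn (pleiotrophin), a growth factor, had 469 CPM in MEF, 2290 in MCC and 0.363 in iPSC. Mgp, an inhibitor of calcification, had 89.0 CPM in MEF and 2 reads in iPSC, and Lrrc17 94.7 CPM and 3 reads. Rtl3 (35.0 CPM) and Medag (34.6) had 0 reads in iPSC, with 36.7% of the exon length of Medag overlapping another gene.

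**Figure D5:**
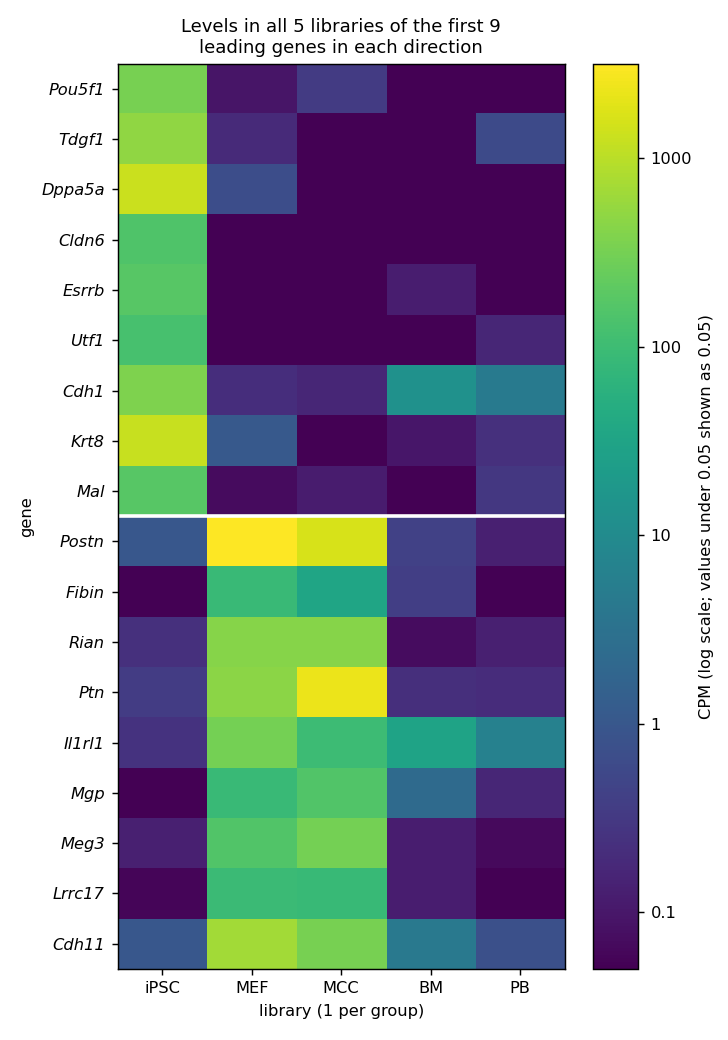
Colour gives the level in CPM, on a log scale with values under 0.05 shown as 0.05, of the first 9 leading genes on either side, ranked by counting bound, in each of the 5 libraries. The upper 9 are bright in iPSC and mostly dark elsewhere, with Cdh1 at 13.5 CPM in BM, while the lower 9 are bright in both MEF and MCC.

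Markers of other cell types were read in both libraries. For leukocytes, 2 of 16 reached 5 CPM, Laptm5 (31.5 CPM in iPSC, 0.671 in MEF) and Cd68 (17.4 and 1.06), and the list summed to 58.3 CPM in iPSC and 6.87 in MEF, while Ptprc, Adgre1 and Tyrobp had 0 reads in iPSC. For endothelium the sums were 77.2 and 32.7 CPM, with Pecam1 (31.0 and 0.370), which pluripotent cells also express, and Tek (14.1 and 1.34) higher, Cdh5 at 0.172 CPM and Emcn at 0 in iPSC. For muscle they were 226.7 and 57.2 CPM, led by Mylpf (92.7 and 7.95), with Myod1 at 0 reads and Myog at 0.134 CPM in iPSC. For neural cells they were 152.9 and 156.6 CPM, with Stmn2 (96.8 and 2.47) and Foxd3 (7.06 and 1.36) called higher. Tubb3 (41.8 and 145), which made up most of the MEF sum, lay lower in iPSC without a call. The part of such cells in the results was not tested.

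Gene families named by symbol are set beside the 8.83% higher and 6.37% lower of all genes. Of 25 members starting with Col, 19 were lower and 1 higher, of 10 Adamts members 6 were lower, of 14 Mmp members 7 were lower and 3 higher, and of 19 Il members 8 were lower and 0 higher. Of 192 solute carriers (Slc) 29 were higher (15.1%) and 10 lower (5.21%). Of 267 Zfp members 19 were higher (7.12%) and 8 lower (3.0%), both under the shares of all genes. Of 102 Rpl members, genes and pseudogenes of the large ribosomal subunit, 1 was higher and 1 lower. By annotated type, 1010 of 11151 protein-coding genes were higher and 728 lower, near the shares of all genes. Of 54 long intergenic RNAs 13 were higher and 8 lower, both above those shares.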

How the data were processed

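RNA from 5 mouse cell sources, 1 library each, was measured as polyA RNA from Trizol-extracted total RNA, per the labels' protocols. The authors deposited whole-number read counts per gene symbol, not normalized; STAR, featureCounts and mm10 are named in the submitters' processing notes. Tool versions, annotation, strand setting and filters were not given in the sources used here, so reads of overlapping antisense genes cannot be told apart. All 5 columns were matched to libraries by name.

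CPM values were computed from the deposited counts on library sizes scaled by TMM over all 5 libraries (edgeR 4.0.16, R 4.3.3). With 1 library per group no test was possible: genes were called by size alone, at 4-fold or more after raising counts under 3 to 3, if either library reached 5 CPM, and list medians use the same floor. Where a library had 0 reads the ratio is a lower bound against 3 reads. Where it had 1 to 3, either the reads or the ratio with its interval are given, and that ratio is taken without the floor. Reads without molecular identifiers are not independent molecules. Tables were made in Python 3.11.15 (pandas 2.3.3, scipy 1.17.1) and plots with matplotlib 3.10.9.

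The members and the gene lists were chosen with earlier results of these data known, and the keratin, epidermal, cholesterol, ATF4 and Y-linked lists after the values were seen. The genes to name were the 12 leading ones by counting bound on either side, all core pluripotency and X and Y genes, up to 4 called and 2 uncalled members of each list, and the 2 genes nearest to the threshold on each side; any others were picked after seeing their values. Some genes this rule names are not reported here. Symbols of the lists missing from the table were not analysed here. Gene positions are from GENCODE M21, in which 11772 of the 11931 genes had 1 locus. The calculation was tested on simulated counts of 34970 genes, 100 made 8-fold higher and 100 lower: all were recovered and 95.4% of intervals held the true ratio, which checks the arithmetic only. Alternatives were DESeq2 1.42.0 size factors, total counts, TMM over the 2 libraries alone, no level filter, a 20 CPM filter, removal of mitochondrial genes and each library's top 10 genes, the counting bound, and an 8-fold rule.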

Additional observations from a re-analysis of the deposited data

How the results depend on the processing

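No paired analysis was possible because each group is 1 library. Of the counts of 1054 higher and 760 lower genes, DESeq2 size factors gave 1063 and 726, TMM over both libraries alone 1083 and 774, leaving out abundant and mitochondrial genes 1117 and 773, and the counting bound 973 and 683. Without the level filter there were 3136 and 1445 and the median log2 ratio was -0.27; at 20 CPM there were 464 and 492. At 8-fold there were 755 and 425. Total counts shifted the median to 0.27. The iPSC-higher genes under 5 CPM in the other 4 libraries numbered 554, beside 335 under 1 CPM. No called direction of a named gene reversed. Of 84 uncalled named genes, 9 changed sign with total counts (Ccng1, Flt1, Gapdh, H2-D1, Myc, Ptgs2, Rlim, Thbs1 and Timp2), at log2 ratios of 0.05 to 0.29, and 0 with the other scalings. Socs3 lost its call with TMM over both libraries alone and without the abundant genes, and Blm with the former. Named genes that lost their call under total counts were Ccn2, Egr1, Emp2, Eno2, Hoxc6, Hoxc8, Isl1, Itga5, Mthfd2 and Pogk. With DESeq2 size factors Emp2, Isl1, Itga5, Mthfd2 and Pogk lost theirs. Calls were also gained: under total counts by Etv5, Kat6b, Lig1, Slc38a4, Slc9a3r1, Tfap2a, Tnnt2 and Top2a. With DESeq2 size factors Kat6b and Slc9a3r1 gained one, and with TMM over both libraries alone Pak3 and Selenom did. The medians of the FGF, Nodal, one-carbon, mitochondrial, imprinted and interferon lists changed sign with total counts. With 1 library each, the spread between cultures is unknown, and 3 reads limit ratios of genes silent in 1 library.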

Other observations

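A few further gene groups, put together after their values were seen, are given as values only. Genes of cholesterol synthesis and fatty acid desaturation lay on the MEF side: of 32 genes, all at 5 CPM in MEF, 13 were lower in iPSC and 0 higher (median log2 ratio -1.74), and 0 of the 32 had a higher level in iPSC. The desaturase genes Fads1 (27.8 CPM in iPSC, 315 in MEF), Fads2 (38.7 and 281) and Fads3 (37.5 and 292) were called lower. Fasn, fatty acid synthase (380 and 518 CPM), was not. With total counts 7 genes were lower in place of 13.

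Targets of ATF4, the factor of the amino acid stress response, were lower in 12 of 23 cases and higher in 0, with a median of -2.02. Atf5 had 502 CPM in MEF and 15.3 in iPSC (32.7-fold, 30.5 to 35.1), Trib3 191 and 16.8, and Aldh1l2, a mitochondrial folate enzyme with 14.1% of its exon length shared, 166 and 1.24. Asns (250 CPM in iPSC, 361 in MEF) and Ddit4 (205 and 144) were not called. With total counts 7 genes were lower. Atf5 was also measured at 320 CPM in MCC.

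Of 38 epidermal genes, 21 reached 5 CPM, 20 in iPSC and 4 in MEF, of which 20 were higher and 1 lower. Most passed the level filter through iPSC alone, so that count follows largely from the filter. Beside the keratins the higher genes included Slurp1 (88.5 CPM in iPSC, 0.0462 in MEF), Aldh3a1 (201 and 0.254) and Tgm1, the transglutaminase of the cornified layer (39.1 and 0.416). The protease Prss8 (37.5 CPM and 1 read in MEF) was higher too. Gjb2 (1.53 and 9.99) was the member called lower. Late markers stayed low in iPSC, with Lor at 1.09 CPM, Ivl at 0.172 and Krt1 at 0.0957. Of 48 keratin genes, 11 reached 5 CPM, 10 of them called higher, and Krt80 (9.57 and 4.39) was not called.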
